A study of Homo sapiens with 4 samples.

Results

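Expression of 10 genes of the transforming growth factor beta (TGF-β) and bone morphogenetic protein (BMP) pathways was compared between 2-D and 3-D grown Elf1 cells. The 10 genes were given as a list by symbol and were matched to 10 of the 60564 gene identifiers in the count files. They are the ligand TGFB1, the TGF-β receptors TGFBR1 and TGFBR2, the BMP receptors BMPR1A and BMPR2, the signal-carrying proteins SMAD1, SMAD5 and SMAD4, and the target genes ID1 and ID3. Elf1 is an established human embryonic stem cell (ESC) line that the study describes as naïve. The 2-D group was 2 libraries of untreated Elf1 cells growing attached to plastic plates coated with Matrigel, as the labels describe 2-D culture, whereas the study's methods describe routine maintenance of the line on mouse feeder cells and a move to Matrigel before encapsulation. The 3-D group was 2 libraries of untreated Elf1 cells enclosed as single cells in a self-assembling polyethylene glycol (PEG) scaffold and kept there for 21 days. Both groups received the same expansion medium, whose supplements in the study's methods are FGF2, LIF, an inhibitor of GSK3 and an inhibitor of MEK, with no TGF-β or BMP ligand named. The groups therefore differed in geometry, in the material around the cells and in the time without passage, which cannot be told apart. All libraries came from 1 cell line.

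TGF-β and BMP ligands bind pairs of type I and type II receptor kinases at the cell surface. The activated type I receptor phosphorylates receptor-regulated SMADs, which are SMAD2 and SMAD3 for TGF-β and SMAD1, SMAD5 and SMAD9 for BMPs. These join SMAD4 and enter the nucleus, where ID1 and ID3 are among the best known genes switched on by BMP signals. In human pluripotent cells the TGF-β, activin and Nodal branch is known for sustaining the undifferentiated state, whereas BMP signals are known for driving differentiation.

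Total RNA depleted of ribosomal RNA was sequenced, and the deposited counts per gene summed to between 18276147 and 33833778 in a library, with the 3-D libraries the shallower. Mitochondrial genes took 5.10% to 5.30% of the counts in 2-D and 8.33% to 8.50% in 3-D libraries. Core pluripotency markers were high in every library (7 genes, summed normalized CPM from 4077 to 4176), with 0 of the 7 called. Of the naïve markers, KLF17 had at most 29 counts and DPPA5 at most 4 counts in a library, and 0 of the 5 tested were called. The other naïve markers were detected in every library, with mean 2-D levels of 23.02 normalized CPM for TFCP2L1, 17.0 for DNMT3L, 9.32 for KLF4 and 6.72 for DPPA3. Of 8 fibroblast markers 6 were tested, and COL1A1, COL3A1, POSTN and THY1 were called higher in 3-D grown cells, while COL1A2, the most abundant of them (log2 fold change −0.037), and PDGFRB (0.017) overlapped between conditions and DCN and LUM had at most 6 and 17 counts in a library. The summed level of the 8 was 533 to 541 normalized CPM in 2-D and 552 to 603 in 3-D libraries. The part of the mitochondrial share and of these markers in the results below was not tested. Of the trophoblast, mesoderm, endoderm and neural markers 0 were called, with CGA at 0 counts in every library. The log2 fold change was above 0 in 3 of 4 tested trophoblast, 4 of 5 mesoderm and endoderm and 2 of 2 neural markers. GATA6 had mean normalized CPM of 0.973 in 2-D and 1.92 in 3-D libraries, and HAND1 0.646 and 1.27. Both missed the threshold (edgeR adjusted p = 0.0516 and 0.0695), at no more than 48 and 26 counts in a library. TBXT was at 21.7 and 24.7, and MIXL1 at 32.8 and 34.2 normalized CPM. In bulk RNA, fewer cells of a type and less RNA per cell cannot be told apart.

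TGFB1 rose in 3-D grown cells, and TGFBR1, SMAD5 and SMAD4 fell. Normalized CPM are the counts of a gene relative to the total of its library, corrected by the TMM method. A gene was called where edgeR's quasi-likelihood test gave an adjusted p below 0.05 (Benjamini-Hochberg, 22555 genes tested), and each adjusted p below is of that kind unless another tool is named. All 10 genes passed the filter on low counts. The test called 1 of the 10 higher and 3 of the 10 lower in 3-D grown cells, where the background over all tested genes was 4.54% called higher and 3.36% called lower. The 2 libraries of one condition lay apart from the 2 of the other in 7 of the 10 genes, against 50.5% of all tested genes. The median log2 fold change of the 10 genes was 0.00094, beside −0.00014 over all tested genes, with 5 of the 10 were higher and 5 lower. Apart from TGFB1, the fitted ratio of 3-D to 2-D level lay between 0.889 and 1.08 in every member.

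**Figure D1:**
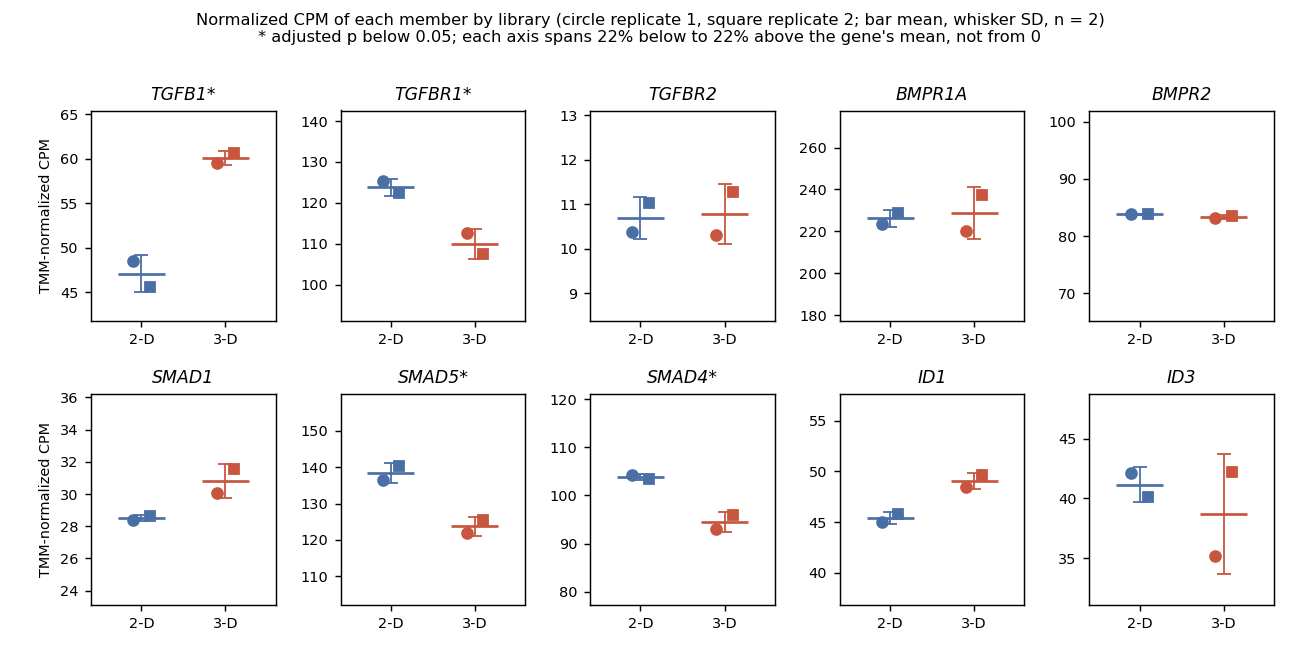
TMM-normalized CPM of each member (vertical axis, its range set separately for each gene and not starting at 0) in 2-D and 3-D libraries, with circles for replicate 1, squares for replicate 2, a bar for the mean and whiskers for the SD (n = 2). TGFB1 sits higher in both 3-D libraries, TGFBR1, SMAD5 and SMAD4 sit lower, and those of TGFBR2, BMPR1A and ID3 overlap between conditions.

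TGFB1, which encodes the founding TGF-β ligand, lies on the minus strand of chromosome 19 from 41301587 to 41353922. Its normalized CPM were 48.6 and 45.7 in 2-D libraries, against 59.6 and 60.7 in 3-D libraries. Both 3-D libraries were above both 2-D libraries. This was a rise of 27.5%, or 0.35 on the log2 scale (standard error 0.047, 95% interval 0.25 to 0.45, edgeR adjusted p = 7.04e-04). The rise was called under each of 13 other processings, and with each library left out in turn (0.31 to 0.40). Beside it, 4 of the 6 tested fibroblast markers were also called higher, COL1A1 by 0.29 and COL3A1 by 0.73 on the log2 scale (edgeR adjusted p = 7.79e-04 and 7.04e-04), while COL1A2 and PDGFRB were not, and the part of these genes in the rise of TGFB1 was not tested. The exons of TGFB1 share 215 bases, 6.59% of their length, with HNRNPUL1 on the opposite strand, which was itself called higher by 0.27 on the log2 scale (edgeR, adjusted p = 2.16e-04). The strand setting of the counting is not given in the sources used here, and the part of HNRNPUL1 reads in the TGFB1 count was not tested.

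TGFBR1, the type I receptor kinase for TGF-β, lies on chromosome 9 from 99104038 to 99154192. Its normalized CPM were 125 and 122 in 2-D and 113 and 107 in 3-D libraries, so that both 3-D libraries were the lower ones. It fell by 11.1%, with a log2 fold change of −0.17 (standard error 0.033, 95% interval −0.24 to −0.099, edgeR adjusted p = 0.00728). The fall was called under each of the 13 other processings, though only just in DESeq2 (adjusted p = 0.0484). Without 2-D replicate 1 the call was lost, at −0.15 (edgeR, adjusted p = 0.0615, and 4.05e-05 to 0.0615 over the libraries left out). TGFBR2, the type II receptor that binds the ligand first, lies on chromosome 3 from 30606601 to 30694142. It was the least abundant member, with normalized CPM of 10.4 and 11.0 in 2-D and 10.3 and 11.3 in 3-D libraries, and the conditions overlapped. Its log2 fold change of 0.011 had a 95% interval from −0.20 to 0.22 (edgeR adjusted p = 0.967), so that at 202 to 357 counts a library a change of the size of that in TGFBR1 lies inside the interval.

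The sequences just before the start sites of the called genes TGFB1 and SMAD5 are shown as those of a gene that rose and one that fell, and those of ID1 and ID3 because SMADs are known to act at these targets. Each is the 250 bases before the GENCODE canonical start, 5′ to 3′ on the strand of the gene, taken from RefSeq promoters of GRCh38.p14, in which 9 of the 10 genes had an entry at that start. Capitals mark GTCT, the core of the SMAD-binding element, and GGCGCC, a GC-rich site bound by BMP SMADs, each on either strand. The stretches are TGFB1 at chr19:41353923-41354172 (minus strand), SMAD5 at chr5:136132595-136132844, ID1 at chr20:31605039-31605288 and ID3 at chr1:23559502-23559751 (minus strand). In GENCODE release 44 they lie upstream of the first exon of their gene, except that the last bases of the ID1 stretch are in an annotated 5′ UTR of ID1 and part of it overlaps an exon of an unnamed gene on the other strand. The SMAD5 stretch lies within the span of the antisense gene SMAD5-AS1, from 136129507 to 136134890. The stretches of TGFBR1 and SMAD4 overlap exons of other transcripts of these genes and are not printed.
TGFB1: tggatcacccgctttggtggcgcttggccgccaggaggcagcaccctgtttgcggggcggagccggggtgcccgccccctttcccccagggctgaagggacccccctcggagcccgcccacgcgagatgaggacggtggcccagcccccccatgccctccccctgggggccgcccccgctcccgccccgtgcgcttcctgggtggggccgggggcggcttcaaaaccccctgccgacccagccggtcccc
SMAD5: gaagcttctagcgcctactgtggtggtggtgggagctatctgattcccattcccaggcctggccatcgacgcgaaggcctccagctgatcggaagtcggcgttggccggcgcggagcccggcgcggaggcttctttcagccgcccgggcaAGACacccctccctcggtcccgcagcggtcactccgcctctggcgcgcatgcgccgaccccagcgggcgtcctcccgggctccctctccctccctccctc
ID1: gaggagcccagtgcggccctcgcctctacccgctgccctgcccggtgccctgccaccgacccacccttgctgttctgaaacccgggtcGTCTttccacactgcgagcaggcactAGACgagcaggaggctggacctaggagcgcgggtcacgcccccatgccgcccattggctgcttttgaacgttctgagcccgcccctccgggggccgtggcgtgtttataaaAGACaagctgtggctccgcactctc
ID3: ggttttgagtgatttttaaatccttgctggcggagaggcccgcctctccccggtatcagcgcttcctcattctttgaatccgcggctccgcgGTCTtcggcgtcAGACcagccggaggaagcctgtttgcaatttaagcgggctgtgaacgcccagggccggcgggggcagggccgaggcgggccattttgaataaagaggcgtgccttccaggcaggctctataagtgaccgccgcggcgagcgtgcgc

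GTCT was found in 6 of the 9 promoters (66.7%), beside 77.5% of 35116 promoters of the same length, and GGCGCC in 2 of the 9 (22.2%), beside 16.4%. In ID1 the matches to GTCT begin 162, 136 and 25 bases before the start, and in ID3 158 and 146 bases before it. BMPR2, which was not called, has the most matches to GTCT of the 9, at 106, 102, 80 and 17 bases, and GGCGCC at 147 bases. SMAD5 has 1 match to GTCT, 100 bases before the start, TGFBR1 has 1 at 213 bases and TGFBR2 1 at 150 bases. SMAD4 has GGCGCC at 125 bases. In TGFB1 and SMAD1 neither motif is in this window. The AP-1 site TGANTCA was found in 0 of the 9 promoters and in 6.57% of all, and no match of one motif overlapped a match of another. G and C made up 58.4% (TGFBR2) to 79.6% (TGFBR1) of the 9 promoters, where the median of all promoters was 58%, so that TGFBR2 lay close to that median.

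SMAD5, a receptor-regulated SMAD of the BMP branch, lies on chromosome 5 from 136132845 to 136188747. Its normalized CPM were 137 and 140.4 in 2-D and 122 and 126 in 3-D libraries, with both 3-D libraries below both 2-D libraries. It fell by 10.6%, or −0.16 on the log2 scale (standard error 0.031, 95% interval −0.23 to −0.094, edgeR adjusted p = 0.00698). The fall was called under each of the 13 other processings, though only just in DESeq2 (adjusted p = 0.0485). Without 2-D replicate 2 the call was lost, at −0.14 (edgeR, adjusted p = 0.104, and 1.39e-04 to 0.104 over the libraries left out). SMAD5 shares 610 exon bases, 6.75% of its exon length, with the antisense gene SMAD5-AS1, which had at most 48 counts in a library.

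SMAD1, the close relative of SMAD5 in the same branch, lies on chromosome 4 from 145481194 to 145559176 and was not called. Its normalized CPM were 28.4 and 28.7 in 2-D and 30.1 and 31.6 in 3-D libraries, so that the 3-D libraries were the higher ones. The log2 fold change was 0.11 (standard error 0.063, 95% interval −0.025 to 0.25, edgeR adjusted p = 0.348), which missed the threshold. The ratio of SMAD5 to SMAD1 counts, which needs no scaling between libraries, was 4.81 and 4.90 in 2-D and 4.06 and 3.98 in 3-D libraries, without overlap. The difference between these genes in their response was not tested. SMAD1 shares 376 exon bases, 5.3% of its exon length, with SMAD1-AS1 on the opposite strand. SMAD1-AS1 had 117 to 190 counts in a library, beside 566 to 977 for SMAD1, and a log2 fold change of 0.14 (edgeR adjusted p = 0.572). The part of SMAD1-AS1 reads in the SMAD1 count and in the ratio was not tested.

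SMAD4, the common partner of all receptor-regulated SMADs, lies on chromosome 18 from 51028528 to 51085045. It shares 967 exon bases, 4.93% of its exon length, with an unnamed protein-coding gene on the same strand. The effect of this overlap on the SMAD4 count was not tested. The normalized CPM of SMAD4 were 104 and 103 in 2-D and 93.1 and 95.9 in 3-D libraries, so that the conditions did not overlap. It fell by 9.05%, or −0.14 on the log2 scale (standard error 0.032, 95% interval −0.21 to −0.067, edgeR adjusted p = 0.0214). The call was lost in DESeq2 (adjusted p = 0.193), in edgeR's likelihood ratio test (0.115) and in limma-trend (0.0513), where the adjusted p over the 13 other processings ran from 0.00170 to 0.193. It was also lost without 2-D replicate 1, at −0.13 (edgeR, adjusted p = 0.183), and without 2-D replicate 2, at −0.14 (edgeR, adjusted p = 0.158). Without either of these libraries 1 of the 10 members was called lower, SMAD5 in the first case and TGFBR1 in the second.

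**Figure D2:**
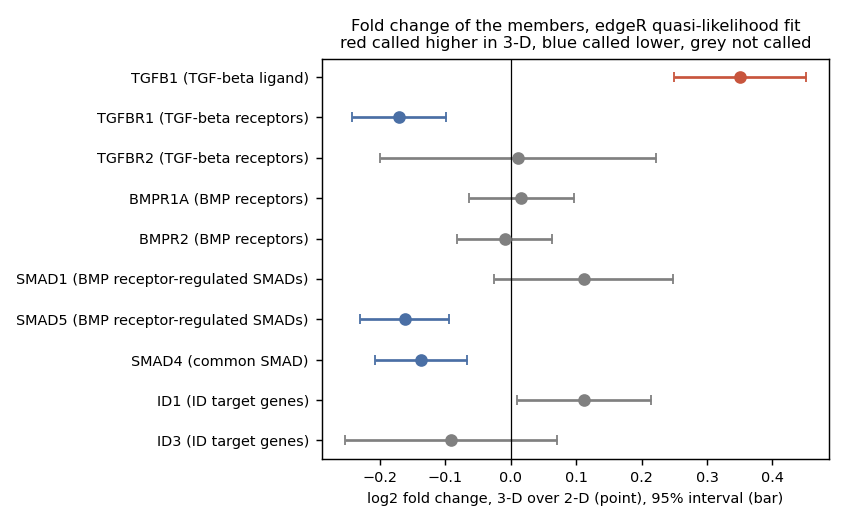
Log2 ratio of the 3-D to the 2-D level (horizontal axis, points) with the 95% interval of edgeR's quasi-likelihood fit (bars) for each member and its role. The interval of TGFB1 lies above 0, those of TGFBR1, SMAD5 and SMAD4 lie below 0, and that of ID1 begins just above 0 without passing the adjusted threshold.

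Neither BMP receptor was called. BMPR1A, a type I receptor for BMPs, lies on chromosome 10 from 86756596 to 86932825, and its normalized CPM were 223 and 229 in 2-D and 220.2 and 238 in 3-D libraries, which overlapped. Its log2 fold change was 0.016 (95% interval −0.064 to 0.097, edgeR adjusted p = 0.859), that is, a ratio of 3-D to 2-D between 0.956 and 1.07. Over 44.5% of its longest transcript BMPR1A has a copy of 98.5% identity on chromosome 6 from 129156536 to 129159388, at the pseudogene BMPR1AP1, so its count is uncertain to the extent that reads were split. The count of BMPR1AP1 was 16 to 37 a library, beside 4259 to 7695 for BMPR1A.

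BMPR2, the type II receptor for BMPs, lies on chromosome 2 from 202376327 to 202567751. Its normalized CPM were 83.8 and 83.9 in 2-D and 83.1 and 83.5 in 3-D libraries, the smallest SD of the members in either condition (0.0806 and 0.285, n = 2). The log2 fold change was −0.0092 (95% interval −0.081 to 0.063, edgeR adjusted p = 0.916), or a ratio between 0.945 and 1.04. The 2 conditions did not overlap even so, at a change of −0.633%. The ratio of BMPR1A to BMPR2 counts was 2.67 and 2.73 in 2-D and 2.65 and 2.85 in 3-D libraries.

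Neither ID gene was called. ID1, an inhibitor of basic helix-loop-helix factors and a direct BMP target, lies on chromosome 20 from 31605283 to 31606515 and had 45.01 and 45.8 normalized CPM in 2-D and 48.5 and 49.6 in 3-D libraries. Both 3-D libraries were above both 2-D libraries. The log2 fold change was 0.11 (standard error 0.047, 95% interval 0.0096 to 0.21), with an unadjusted p of 0.0345 and an adjusted p of 0.188 in edgeR's quasi-likelihood test. ID3, a related target, lies on the minus strand of chromosome 1 from 23557926 to 23559501 and had 42.2 and 40.1 normalized CPM in 2-D and 35.2 and 42.2 in 3-D libraries. Here 3-D replicate 1 was the lowest library and 3-D replicate 2 the highest. The log2 fold change of −0.091 (standard error 0.075, 95% interval −0.25 to 0.071, edgeR adjusted p = 0.55) turned to 0.038 without 3-D replicate 1. Without 3-D replicate 2 it was −0.22 and was called (edgeR, adjusted p = 0.0219, and 0.0219 to 0.862 over the libraries left out). The ratio of ID1 to ID3 counts was 1.07 and 1.14 in 2-D and 1.38 and 1.18 in 3-D libraries.

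Levels of different genes were compared as normalized CPM per kb of exon, since a longer gene collects more reads. ID1 was the highest member in both conditions, with 36.8 ± 0.448 in 2-D libraries and 39.8 ± 0.652 in 3-D libraries (SD, n = 2). In 2-D grown cells ID3 (27.5), BMPR1A (22.5), TGFBR1 (15.5), SMAD5 (15.3), TGFB1 (14.4), BMPR2 (6.71), SMAD4 (5.30), SMAD1 (4.02) and TGFBR2 (1.56) followed in CPM per kb. TGFBR1 and SMAD5 overlapped between libraries in both conditions, and ID3 and BMPR1A did so in 3-D grown cells. In 3-D grown cells TGFB1 moved ahead of TGFBR1 and SMAD5 and the other places were kept, with TGFB1 at 18.4 ± 0.246, TGFBR1 at 13.8 ± 0.457 and SMAD5 at 13.7 ± 0.285 CPM per kb. The ratio of TGFB1 to TGFBR1 counts was 0.388 and 0.373 in 2-D and 0.529 and 0.565 in 3-D libraries, without overlap. Per length, TGFBR2 was thus the lowest member in both conditions, far below its partner TGFBR1. These levels use the exons of GENCODE release 44. With the length of the canonical transcript in their place, TGFBR2 stayed lowest and ID1 highest, while SMAD5 came to lie above TGFBR1, and SMAD4 and SMAD1 above BMPR2, in both conditions.

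**Figure D3:**
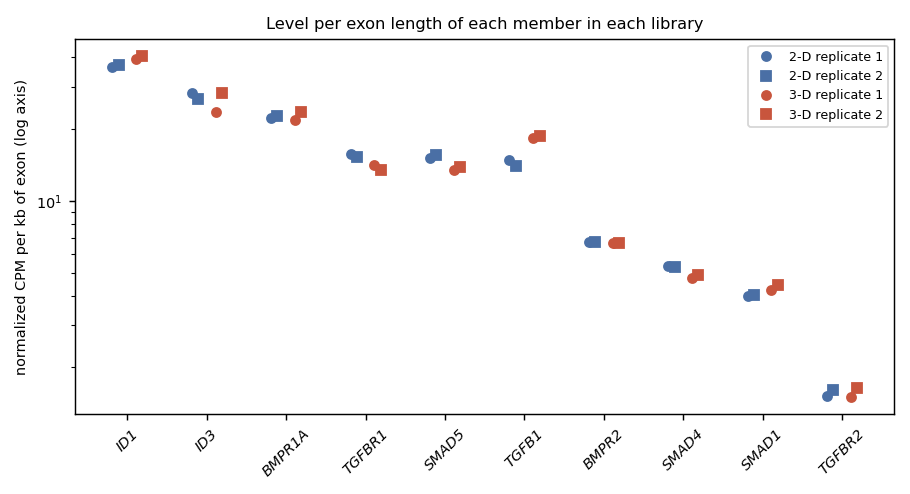
Normalized CPM per kb of exon (vertical axis, log scale) of each member in each of the 4 libraries, with circles for replicate 1 and squares for replicate 2, ordered by the mean in 2-D grown cells. ID1 is highest at 36.8 in 2-D and 39.8 in 3-D libraries, and TGFBR2 lowest at 1.56 and 1.58.

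Within its class, most of the RNA per length belonged to 1 or 2 genes, and these were mostly members. TGFB1 made up 97.5% of the summed CPM per kb of the 3 TGF-β ligands in 2-D and 98.2% in 3-D libraries, the rest being TGFB2 and TGFB3. BMPR1A made up 90.9% and 91.2% of the summed level of BMPR1A, BMPR1B and ACVR1, the type I receptors for BMPs. Of the BMP SMADs, SMAD5 made up 78.2% and 78.6% in 2-D libraries, against 75.0% and 74.6% in 3-D libraries, and SMAD1 20.7% and 20.4% against 23.6% and 23.9%. With canonical transcript lengths, SMAD1 held 32.2% in 2-D and 36.4% in 3-D libraries and SMAD5 67.0% and 62.6%. Of the type II receptors that BMPs can use, ACVR2B held 63.4% in 2-D and 61.3% in 3-D grown cells, and BMPR2 23.2% and 24.5%. Of the ID genes, ID1 held 51.2% and 54.1%, ID3 38.3% and 35.04%, and ID2 and ID4 the remainder.

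The other genes of the pathway were read from a list of 70 genes by role, of which 59 were tested, 4 called higher and 3 called lower in 3-D grown cells. The median log2 fold change of the 59 was 0.0034, beside −0.00014 over all tested genes. The 11 genes that were not tested include the BMP antagonist NOG and the ligand TGFB2, with at most 3 and 17 counts in a library. Scaled by library size alone, 2 were called higher and 7 lower, and with length and GC offsets 1 higher and 5 lower, whereas the members stayed at 1 and 3 under both. Over all tested genes the calls moved likewise with library size, from 1024 higher and 758 lower to 514 and 1879. With the offsets they were 742 and 738, so that the higher calls fell as in the list but the lower calls did not increase.

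Among the ligands, BMP4 and BMP6 went opposite ways. BMP4, a ligand used to differentiate pluripotent cells, had 28.1 and 26.9 normalized CPM in 2-D and 32.4 and 32.5 in 3-D libraries, and rose by 0.24 on the log2 scale (standard error 0.062, edgeR adjusted p = 0.0348). The call was lost at 0.27 without 2-D replicate 1 and at 0.21 without 2-D replicate 2 (edgeR adjusted p = 0.0770 and 0.244), and 9 of the 13 other processings called BMP4, not the likelihood ratio test, DESeq2, library size scaling or the length and GC offsets. BMP6 had 19.7 and 16.2 in 2-D and 13.0 and 13.8 in 3-D libraries, a change of −0.42 on that scale (standard error 0.10, edgeR adjusted p = 0.0223). It was called under 12 of the 13 other processings, and missed the threshold in DESeq2 (adjusted p = 0.0743). The ratio of BMP4 to BMP6 counts was 1.43 and 1.66 in 2-D and 2.49 and 2.36 in 3-D libraries. The BMP6 change was −0.27 without 2-D replicate 1, where the call was lost (edgeR, adjusted p = 0.222, and 4.96e-04 to 0.222 over the libraries left out). The 7 tested TGF-β ligands and latency proteins had 0 called, 6 of them higher. LTBP1, which stores latent TGF-β in the matrix, was the most abundant of them per length, at a log2 fold change of 0.13 (edgeR, adjusted p = 0.154). NRROS, which binds latent TGF-β at the cell surface, was at 0.39 (edgeR, adjusted p = 0.131).

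Among receptors and co-receptors, ACVR2B, a type II receptor shared by activins and BMPs, had 284 and 291 normalized CPM in 2-D and 259 and 265 in 3-D libraries, and fell by 0.13 on the log2 scale (standard error 0.031, edgeR adjusted p = 0.0210). ACVR2B was called under 12 of the 13 other processings, but not in edgeR's likelihood ratio test (adjusted p = 0.152). The call was lost at −0.15 without 2-D replicate 1 and at −0.11 without 2-D replicate 2 (edgeR adjusted p = 0.0735 and 0.306). RGMA, a BMP co-receptor, and NEO1, the neogenin receptor that binds RGM proteins, were both called higher. RGMA had 38.0 and 38.6 normalized CPM in 2-D and 44.2 and 47.8 in 3-D libraries, at 0.26 (edgeR, adjusted p = 0.0114), and missed the threshold in DESeq2 (adjusted p = 0.0520) and with length and GC offsets (0.18, edgeR adjusted p = 0.0654). NEO1 had 72.9 and 72.1 in 2-D and 82.6 and 83.0 in 3-D libraries, at 0.19 (edgeR, adjusted p = 0.00460). It missed the threshold in DESeq2 (adjusted p = 0.0623) and without 2-D replicate 2, at 0.18. The TGF-β SMADs SMAD2 and SMAD3 and the BMP SMAD SMAD9 were not called. SMAD3, the most abundant of the 3 per length, had a log2 fold change of 0.017 (edgeR adjusted p = 0.878). The change was −0.048 when scaled by library size alone and −0.025 with length and GC offsets. Not divided by length, SMAD2 was higher, with mean normalized CPM of 177 in 2-D and 172 in 3-D libraries, against 53.0 and 53.7 for SMAD3. The exons of SMAD2 add up to 36426 bases and those of SMAD3 to 10011.

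Of the 11 intracellular inhibitors, SKI, a co-repressor of SMADs, was called higher by 0.12 on the log2 scale (edgeR, adjusted p = 0.0407) and TGIF1, another co-repressor, lower with a log2 fold change of −0.14 (edgeR, adjusted p = 0.0418). Both lay near the threshold, with SKI called under 4 and TGIF1 under 8 of the 13 other processings, and with 1 library left out SKI was called only without 3-D replicate 1 (0.15) and TGIF1 only without 3-D replicate 2 (−0.20). SMAD6, the inhibitory SMAD of the BMP branch and itself a BMP target, had 16.9 and 17.0 normalized CPM in 2-D and 13.8 and 14.1 in 3-D libraries. Its log2 fold change of −0.28 narrowly missed the threshold (edgeR adjusted p = 0.0502), and 8 of the 13 other processings, and the fit without 3-D replicate 2 (−0.30), called it. SMAD7, which inhibits both branches, had a log2 fold change of −0.083 (edgeR, adjusted p = 0.229), but was called lower when scaled by library size (−0.15), and with length and GC offsets without (−0.14) and with the replicate block (−0.14). These had edgeR adjusted p of 0.0288, 0.0477 and 0.0192. For SKIL, the most abundant inhibitor per exon length, the log2 fold change was 0.0037 (edgeR, adjusted p = 0.965).

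Of 9 tested secreted antagonists and 12 tested target genes 0 were called, beside 4.54% called higher and 3.36% called lower of all tested genes. An unadjusted p below 0.05 in edgeR's quasi-likelihood test was reached by 1 antagonist and 2 targets, beside 4808 of all 22555 tested genes. Among them was the BMP target ID4 at a log2 fold change of 0.33 (edgeR, adjusted p = 0.208). FST, the most abundant antagonist per exon length, and CCN2, the most abundant target per exon length, had log2 fold changes of 0.059 and −0.015 (edgeR, adjusted p = 0.376 and 0.885). With 1 library left out, ID4 was called without 3-D replicate 2 (0.52), and FST without 3-D replicate 1 (0.11). In DESeq2 the 59 genes had 0 called higher and 1 called lower. DESeq2 gave an adjusted p to 10229 of all genes, with 511 called higher and 284 lower, whereas edgeR tested 22555.

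**Figure D4:**
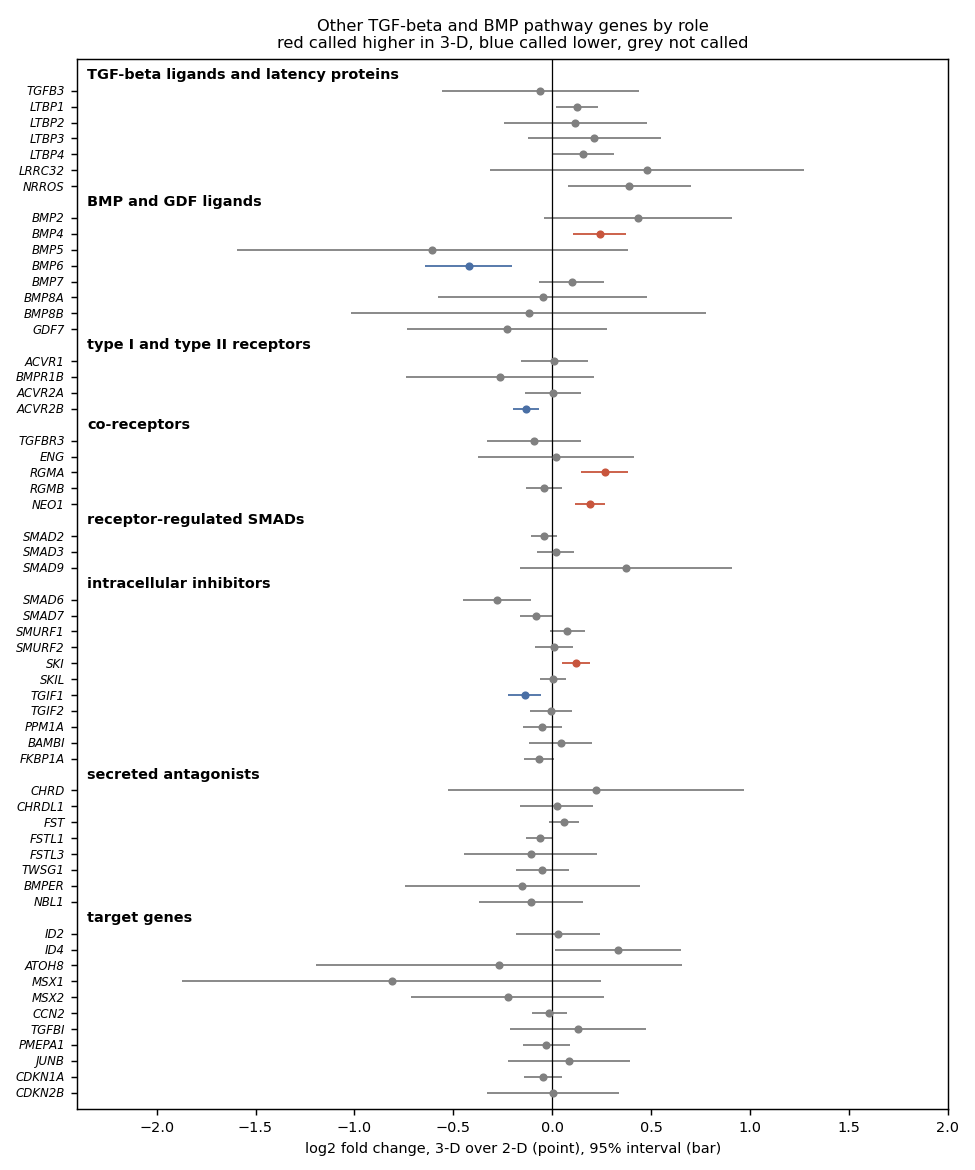
Log2 ratio of the 3-D to the 2-D level (horizontal axis, points) with the 95% interval of edgeR's fit (bars) for tested genes of the pathway list, grouped by role. BMP4, RGMA, NEO1 and SKI are called higher and BMP6, ACVR2B and TGIF1 lower, and most other intervals cross 0.

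The members differ in features that counting can depend on. The longest transcript held 63.6% G and C in TGFB1, 58.6% in ID1 and 56.7% in ID3, and between 36.9% and 42.7% in the receptors and SMADs. With offsets that remove trends with gene length and GC content, the log2 fold changes were 0.30 for TGFB1, −0.17 for TGFBR1, −0.15 for SMAD5 and −0.16 for SMAD4, and all 4 were called. With library size in place of TMM, which moved the median of all genes to −0.065, they were 0.29, −0.23, −0.23 and −0.20 and were again all called. Under that scaling the log2 fold change of TGFBR2 was −0.053, that of BMPR1A −0.048, that of SMAD1 0.047 and that of ID1 0.048 (edgeR adjusted p = 0.621 for ID1).

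**Figure D5:**
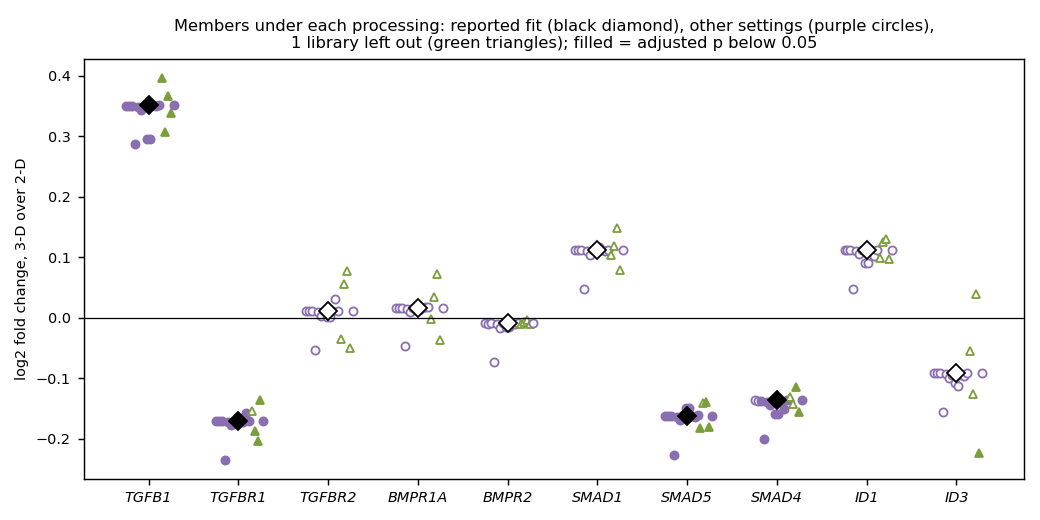
Log2 ratio of the 3-D to the 2-D level (vertical axis) of each member under the reported fit (black diamonds), 13 other settings (purple circles) and with 1 library left out (green triangles), filled where the adjusted p is below 0.05. TGFB1 is filled throughout, between 0.29 and 0.40, SMAD4 is open in several settings, and ID3 crosses 0 when 1 of the 3-D libraries is left out.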

How the data were processed

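RNA-seq counts of 4 libraries, 2 of 2-D and 2 of 3-D grown Elf1 cells, were analysed. The study describes the replicates of a condition as independent. The authors trimmed reads with Trim Galore 0.6.3, mapped them to hg38 with HISAT2 2.1.0 and counted them with featureCounts 1.6.4 on GENCODE release 30. The deposited counts are whole, 1 column per library, and neither normalized nor pooled. The deposited normalized signal, which the authors made by dividing the counts by 1 DESeq2 (2.11.40.6) size factor per library, was used for 1 alternative. The fold changes, errors and p-values of the same table are the authors' comparison and were not used.

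Names, positions and lengths were taken from GENCODE release 44, which lacked 269 of the 60564 identifiers. Counts were tested with edgeR 4.0.16 (R 4.3.3), with TMM scaling, the default filter on low counts, the quasi-likelihood test on condition alone and Benjamini-Hochberg adjustment. A standard error is the size of the log2 fold change over the square root of F, and intervals are 95%. Counts of replicates differed by more than sampling noise (chi-square over degrees of freedom 2.45 in 2-D and 4.39 in 3-D). The alternatives were the likelihood ratio test, DESeq2 1.42.0, other scalings and filters, splines of length and GC content with 5 degrees of freedom, limma-trend (limma 3.58.1) on log2 of the normalized signal plus 1, thinned 2-D libraries, replicate blocks and each library left out. edgeR without its legacy mode and the crossed block were added after seeing the data. Transcripts were aligned to hg38 with minimap2 2.31-r1302. The procedure was tested on simulated counts. Figures were drawn with matplotlib 3.10.9.

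The members and lists were chosen with earlier results of these data known. The text names the 10 members and, of the pathway list, the called genes, the gene with the highest level per length in each role and the genes with an unadjusted p below 0.05, of which some are not reported here. Other genes named, TGFB2, TGFB3, BMPR1B, ACVR1, SMAD2, SMAD9, ID2, NOG, BMPR1AP1, SMAD1-AS1, SMAD5-AS1, HNRNPUL1 and the markers, serve as classes, limits or checks.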

Additional observations from a re-analysis of the deposited data

How the results depend on the processing

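Of the members 1 was called higher and 3 lower, and the counts stayed within 1.5 times of these in all 13 other settings, the replicate block included (1 higher and 3 lower), and SMAD4 was the call lost where 2 were lower. With 1 library left out, members called lower numbered 1 to 4. For those fits the lone library of a condition was assumed to vary like the others. The pathway list genes called, 4 higher and 3 lower, were 0 and 1 in DESeq2, 2 and 1 in the likelihood ratio test, 2 and 7 with library size only and 1 and 5 with length and GC offsets. They were 4 and 5 with the replicate block with length and GC offsets, and 1 to 6 and 0 to 5 with 1 library left out. Over all genes, 1782 of 22555 were called, 795 of 10229 in DESeq2 and 1139 of 22555 in the likelihood ratio test. Library size as scaling moved the median of all genes to −0.065, and with it values near 0 turned negative for TGFBR2 (−0.053), BMPR1A (−0.048), SMAD3 (−0.048), SKIL (−0.061) and FST (−0.0053). With the cause not tested, the direction also turned for SMAD3 with length and GC offsets (−0.025, also with the replicate block), for SKIL at a minimum of 10 counts (−0.0039), and with thinned 2-D libraries for SMAD3 (−0.0076), SKIL (−0.0028) and CCN2 (0.015). With 1 library left out, values ran from −0.05007 to 0.077 for TGFBR2, −0.037 to 0.072 for BMPR1A, −0.22 to 0.038 for ID3, −0.0083 to 0.018 for SKIL and −0.028 to 0.00085 for CCN2. None of these genes was called in the reported fit. Replicate numbers are only names here: the deviations of same-numbered libraries correlated at −0.0079 over all tested genes and −0.127 over genes at 10 CPM or more. The block called 2167 genes and the crossed pairing, chosen after seeing the data, 2212. With 2 libraries a condition, the 95% interval of each member rests on the spread that edgeR estimates with all genes. It does not cover the choice of scaling.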
